A study of Mus musculus with 12 samples.

Results

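The genes of cyclic AMP (cAMP) and heterotrimeric G-protein signalling were followed across the endocrine cells of the mouse pancreatic islet. They were chosen by symbol alone, as the adenylyl cyclases (Adcy and a number), the phosphodiesterases (Pde, a digit and a letter), the regulatory and catalytic subunits of protein kinase A (Prkar and Prkac), the Rap guanine nucleotide exchange factors (Rapgef), the Gα subunits (Gna and a suffix), Creb1 and Crem. The rule gave 69 genes of the 45808 in the bulk count table and of the 31055 in the single-cell gene files. They were 16 Gα subunits, 10 cyclases, 23 phosphodiesterases, 4 PKA regulatory and 2 PKA catalytic subunits, 7 Rap exchange factors, 2 CREB factors and 5 RNA genes named as the opposite strand of a Rapgef gene.

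All cells came from 2-month-old mice of mixed background, and islets of the ventral pancreas of both sexes were used. For single-cell RNA-seq, Ppy-rtTA; R26-YFP mice were given doxycycline in the drinking water at 1 mg/ml, and islet cells of pooled mice were sorted. Each of 2 experiments gave 1 YFP+ and 1 YFP- library. The single-cell labels call these mice wild-type, although they carry the reporter alleles, and the methods add a TetO-Cre allele that the single-cell labels leave out. Bulk RNA-seq compared γ-cells (pancreatic polypeptide cells) with δ-cells (somatostatin cells). The 5 γ libraries came from YFP+ cells of mice with Ppy-rtTA, TetO-Cre and R26-YFP that had received doxycycline, and the 3 δ libraries from YFP+ cells of Sst-Cre; R26-YFP mice, for which the labels give the same doxycycline treatment. The Ppy-rtTA allele replaces the coding sequence of 1 Ppy copy, so these γ-cells have a single working copy of Ppy. A Cre reporter stays on once its driver has been active, whatever hormone the cell makes when collected. The design asks what Ppy-expressing cells transcribe beside the other endocrine cells of the islet. The labels do not say which mice gave which library, so p-values measure the spread between these libraries or sums, which may be partly technical.

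Cyclic AMP is made at the plasma membrane by adenylyl cyclases, which Gαs and Gαolf stimulate and members of the Gαi/o group inhibit. It acts through protein kinase A, whose regulatory subunits release the catalytic subunits when they bind cAMP, and through the exchange factors Epac1 (Rapgef3) and Epac2 (Rapgef4). Phosphodiesterases end the signal by hydrolysing it. In islets cAMP is known for amplifying hormone secretion, as when incretins act on β-cells, and for carrying the inhibition by somatostatin and adrenaline. PKA passes the signal to the nucleus by phosphorylating CREB factors.

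CREB factors are known to bind the palindrome TGACGTCA and the shorter motif TGACG, so the promoters of the genes themselves were searched for both on either strand (every palindrome also holds the shorter motif). A RefSeq promoter window, from 250 bases before to 50 bases after the gene start (GRCm38.p6), was matched for 50 of the 69 genes. The palindrome was found in 1 of these 50 windows (2.0%), against 2.03% of 27025 genes, and the shorter motif in 18 of 50 (36.0%), against 23.0%. The window that held the palindrome was that of Prkar1a, which encodes the type Iα regulatory subunit of PKA, and it is shown because its gene had the highest level per length of all PKA subunits below. It lies at chr11:109650889-109650918 on the plus strand, begins its capitals 49 bases before the RefSeq gene start, and has the palindrome in capitals. The GENCODE M21 model of the gene starts further upstream, at 109649405, and so contains this stretch.
Prkar1a: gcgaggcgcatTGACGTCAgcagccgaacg

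Bulk libraries held 14633838 to 31784878 counts in γ-cells and 7641916 to 11773598 in δ-cells. The γ libraries were sequenced paired-end and the δ libraries single-end on an older instrument, so read layout and instrument cannot be told apart from cell type. Defining markers were present in each group: 4 of 4 γ markers were higher in every γ library and 4 of 4 δ markers in every δ library. The 4 γ markers (Ppy, Pyy, Folr1 and Tspan8) are the γ identity genes that the paper took from the single cells of this series. Ppy and Sst also drove the reporters used for sorting, so these counts are no independent check. Each group also held the markers of the other. Summed γ markers were at 22099 to 36312 CPM in δ libraries, against 169767 to 216207 in γ. Summed δ markers were at 7983 to 13300 CPM in γ libraries, against 61367 to 89189 in δ. Markers of other cell types were measurable in both. The 7 summed α-cell markers gave 48752 to 96918 CPM in γ libraries and 1431 to 6033 in δ libraries. The 22 acinar markers gave 3019 to 18001 CPM in γ and 28564 to 118919 in δ, with 17 of the 22 higher in every δ library and none at 0 throughout. The 9 β-cell markers gave 10405 to 24426 CPM in γ and 3633 to 5096 in δ, with 7 of the 9 higher in every γ library and none at 0 throughout. The part of such cells, or of sorted cells that make another hormone as well, in the differences below was not tested. In bulk, fewer cells of a type and less RNA per cell cannot be told apart. CPM here is after TMM scaling of the counts, which sets libraries against each other by the trimmed mean of most genes, so that the scaled values of a hormone-rich sum can add up to more than the nominal total. Among single cells, 4095 cells fell into 7 hormone classes after 126 doublets were removed. They were monohormonal Ppy+ (1435 cells), Gcg+ (630 cells, α-cells), Ins2+ (527 cells, β-cells) and Sst+ (250 cells). The bihormonal classes were Ppy+Gcg+ (755 cells), Ppy+Sst+ (375 cells) and Ppy+Ins2+ (123 cells). Monohormonal cells were kept only in clusters that matched their hormone, while bihormonal cells were taken from every endocrine cluster. A cluster high in both Ppy and Gcg matched both hormones and held 143 of the Ppy+ and 9 of the Gcg+ cells. A further 27 Ppy+ cells lay in a Ppy cluster whose top genes were mostly acinar, such as Cela2a and Try4. By clustering, 285 Ppy+Sst+ cells were grouped with the 250 Sst+ cells, and 149 Ppy+Gcg+ cells with 621 Gcg+ cells. Likewise 106 Ppy+Ins2+ cells were grouped with 97 Ins2+ cells and 14 with 430. The paper excluded bihormonal cells grouped in this way. UMIs were summed per class and experiment, so each class has n = 2 sums. Of the Ppy+ cells 13 came from YFP- libraries, while every Gcg+ cell did, and pairs of libraries shared 1 to 6 cell barcodes. In experiments 1 and 2 the YFP+ libraries held 336 and 332 Ppy+Gcg+ cells and 73 and 36 Ppy+Ins2+ cells.

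In bulk, 62 of the 69 genes passed the filter of a mean of 5 counts, and 24 of the 62 were called (edgeR quasi-likelihood test, Benjamini-Hochberg adjusted p at most 0.05 and a fold of at least 2), 18 higher and 6 lower in γ-cells. This was 38.7% of those tested, beside 35.0% of all genes tested, with 20.7% of all genes higher and 14.2% lower. The members' median log2 fold change was 0.03 and that of all genes -0.06. The largest differences in favour of γ-cells were in Gαi1, Gα12, Rapgef2 and Pde8a among genes above 10 CPM, and those in favour of δ-cells were in Pde4d, Pde10a and the olfactory Gα subunit Gnal. By upper-quartile scaling, which moved the median of all genes by -0.30, the split of all genes called turned from 3715 higher and 2553 lower to 3055 higher and 3746 lower, and that of the members became 16 higher and 14 lower.

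**Figure D1:**
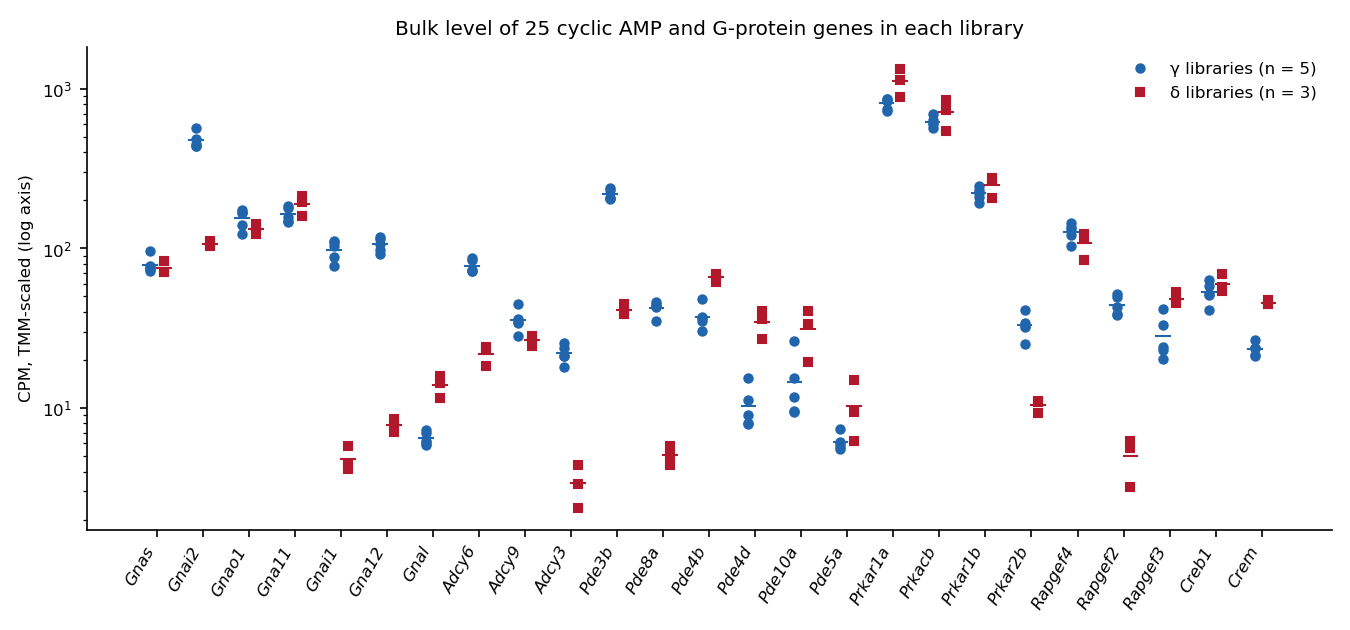
Bulk CPM on a log axis of 25 members in each γ library (n = 5) and each δ library (n = 3), 1 point a library and a line at each mean. Gnai1, Gna12 and Rapgef2 show γ points far above all δ points, Pde4d shows the reverse, and the points of Gnas and Prkacb overlap.

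Of the Gα subunits, 6 of 15 tested were called, 4 higher and 2 lower in γ-cells. Gnai1, an inhibitory subunit of the Gαi group, was at 109, 111, 77.9, 88.6 and 104 CPM in the γ libraries and at 5.76, 4.15 and 4.47 CPM in the δ libraries. Every γ library was more than 10 times above every δ library (log2 fold change 4.37 ± 0.19 SE, edgeR adjusted p = 4.07e-08). Its relative Gnai2 was at 454, 568, 436, 437 and 485 CPM in γ and 103, 106 and 111 CPM in δ, again without overlap (log2 fold change 2.15 ± 0.13 SE, edgeR adjusted p = 3.41e-07). Gnaz, a further inhibitory subunit, was at 82.1 to 118 CPM against 24.9 to 41.7 CPM (log2 fold change 1.70, edgeR adjusted p = 2.51e-05). The other members of the group were not called: Gnai3 had a log2 fold change of 0.24 and Gnao1, the abundant neuronal and endocrine Gαo, one of 0.22, edgeR adjusted p = 0.177. Gna12, a subunit of the Gα12/13 group, was at 106, 118, 97.9, 92.8 and 114 CPM in γ and 7.12, 8.54 and 7.89 CPM in δ (log2 fold change 3.75 ± 0.14 SE, edgeR adjusted p = 2.29e-08). Its partner Gna13 had a log2 fold change of 0.34.

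The stimulatory subunit Gnas was at 72.2, 77.97, 74.1, 75.9 and 96.5 CPM in γ and 71.1, 71.4 and 83.8 CPM in δ, with overlapping groups (log2 fold change 0.07 ± 0.12 SE, edgeR adjusted p = 0.636; -0.45 in the single cells below and -0.22 in bulk by upper-quartile scaling). Gnal, the stimulatory subunit of olfactory neurons, was lower in every γ library, at 7.02, 6.19, 6.03, 5.84 and 7.296 CPM against 14.3, 11.6 and 15.9 CPM (log2 fold change -1.11 ± 0.20 SE, edgeR adjusted p = 0.000984). Gnat3, the taste subunit gustducin, was nearly absent from γ libraries at 0 to 0.149 CPM and low in δ libraries at 0.895 to 4.31 CPM. Of the Gαq group, which drives phospholipase C, Gna11 was at 146 to 185 CPM in γ and 161 to 213 CPM in δ, and Gnaq at 95.8 to 114 against 138 to 222 CPM (log2 fold change -0.84, edgeR adjusted p = 0.000591), past the adjusted p but short of the fold.

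The low bulk level of Gnas has a measured feature beside it. Its gene lies at chr2:174284320-174346744 on the plus strand (GRCm38, GENCODE M21), and a gene model of the minus strand, Gm20721, covers 1469 of its 11186 exon bases while the share of single Gnas transcripts that it covers ranges from 0% to 85.4% over 24 transcripts. The bulk kit keeps no strand. If reads were counted without strand, the union counting named in the methods gives no count to a read on both genes. The strand setting of the counting is not stated in the methods. Bulk Gnas stood at 7.09 RPKM in γ-cells, beside 126 for Gnai2, whereas in the stranded single-cell data Gnas had 38985 UMIs over the 7 classes and Gm20721 had 202. The RPKM of Gnas divides by all 11186 exon bases, while its single transcripts have 480 to 3947, so it depends on the length chosen. Whether the overlap lowers the bulk value was not tested.

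Of the cyclases, 3 of 10 were called, all higher in γ-cells. Adcy3, a cyclase responsive to calcium and calmodulin, was at 25.4, 23.8, 18.2, 21.2 and 21.2 CPM in γ and 2.37, 3.35 and 4.39 CPM in δ (log2 fold change 2.69 ± 0.24 SE, edgeR adjusted p = 5.68e-06); 22.1% of its exon bases overlap Cenpo on the other strand. Adcy6, which calcium and Gαi inhibit and which had the highest γ level per length of the family (11.5 RPKM), was at 72.6, 84.3, 72.3, 87.7 and 73.4 CPM in γ and 18.4, 24.2 and 23.02 CPM in δ (log2 fold change 1.83 ± 0.13 SE, edgeR adjusted p = 1.10e-06). Adcy1, another calmodulin-stimulated form, was low in both, at 1.49 to 7.75 CPM against 0.0813 to 0.791 CPM, and its γ libraries differed widely among themselves (log2 fold change 3.68, edgeR adjusted p = 0.00356). Adcy9, weakly sensitive to forskolin, was at 28.2 to 45.1 CPM in γ and 24.5 to 28.4 CPM in δ and was not called (log2 fold change 0.40, edgeR adjusted p = 0.0503).

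Of the phosphodiesterases, 6 of 19 tested were called (31.6%, beside 35.0% of all genes), 4 higher and 2 lower in γ-cells. Pde3b, the cGMP-inhibited enzyme that insulin activates, had the highest level per length of its family in γ-cells (23.9 RPKM) and was at 207, 239.6, 208, 231 and 205 CPM in γ and 38.9, 39.3 and 44.7 CPM in δ. The groups were far apart (log2 fold change 2.41 ± 0.11 SE, edgeR adjusted p = 6.64e-08). Pde8a, an enzyme of very high affinity for cAMP, was at 42.7, 45.1, 43.8, 35.001 and 46.2 CPM against 5.76, 4.39 and 5.04 CPM (log2 fold change 3.07 ± 0.16 SE, edgeR adjusted p = 1.54e-07). The cAMP-specific Pde7a (16.9 to 28.6 against 5.11 to 9.84 CPM) and the calmodulin-dependent Pde1a (7.59 to 12.7 against 0.488 to 3.502 CPM) were also higher in γ-cells, with log2 fold changes of 1.39 and 2.41. In the other direction, the cAMP-specific Pde4d was at 15.3, 7.96, 11.2, 9.03 and 8.04 CPM in γ and 36.03, 27.1 and 40.7 CPM in δ, every δ library above every γ library (log2 fold change -1.74 ± 0.24 SE, edgeR adjusted p = 0.000141). Pde10a, which hydrolyses both cyclic nucleotides, was at 11.7, 9.47, 9.59, 26.1 and 15.4 CPM against 33.5, 19.3 and 40.8 CPM, and here γ4 lay above δ2 (log2 fold change -1.11 ± 0.35 SE, edgeR adjusted p = 0.0224). Its call was lost without γ2, γ3, δ1 or δ3. Pde4b was at 30.3 to 48.2 CPM in γ and 61.6 to 69.6 CPM in δ (log2 fold change -0.83, edgeR adjusted p = 0.000621) and the cGMP-specific Pde5a at 5.54 to 7.37 against 6.21 to 14.97 CPM (log2 fold change -0.74, edgeR adjusted p = 0.052), and neither was called.

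**Figure D2:**
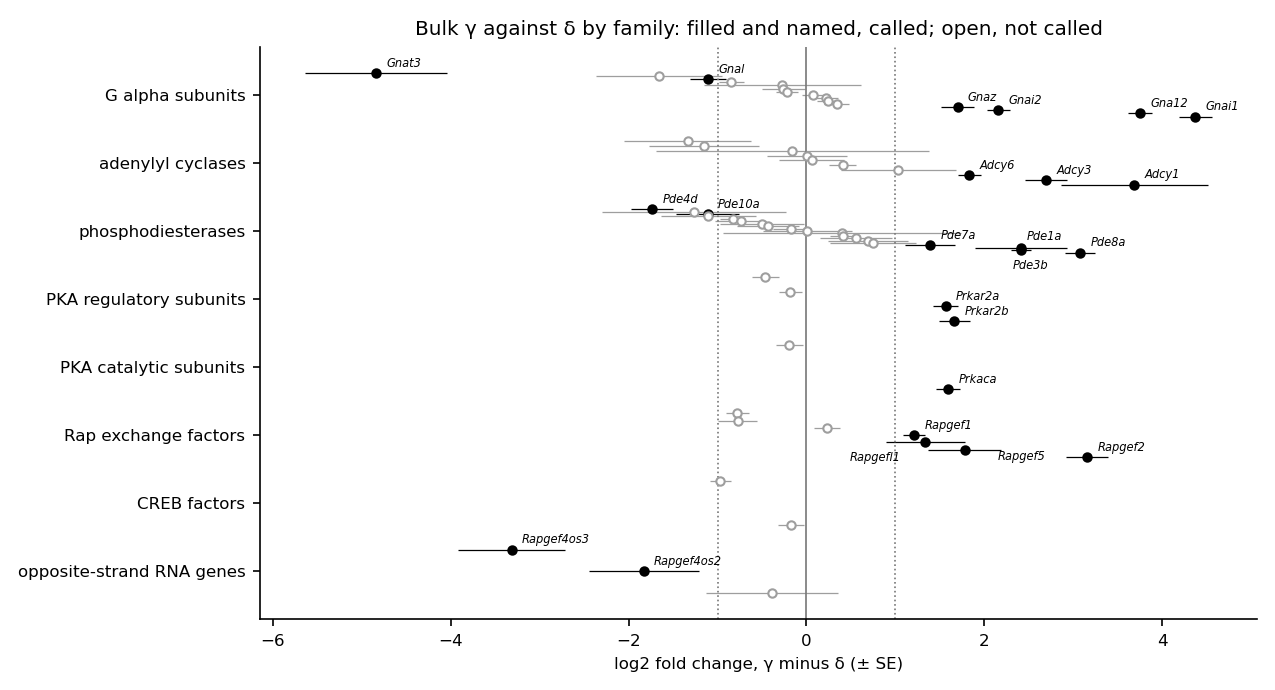
Log2 fold change of γ-cells against δ-cells in bulk for every member tested (points, with bars of 1 SE), by family, called members filled and the fold threshold dotted. Called Rap exchange factors and PKA subunits all lie above 0, and phosphodiesterases lie on both sides.

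Protein kinase A had called members in both kinds of subunit. The catalytic subunit Prkaca was at 133, 187, 144, 148 and 154 CPM in γ and 44.4, 52.995 and 54.8 CPM in δ (log2 fold change 1.59, edgeR adjusted p = 4.29e-06). The type II regulatory subunits Prkar2a (43.5 to 63.1 against 17.2 to 19.3 CPM) and Prkar2b (25.2 to 41.03 against 9.35 to 11.1 CPM) were higher in γ-cells by log2 fold changes of 1.56 and 1.66. All 3 were higher in every γ library than in any δ library. The type I subunits and the other catalytic subunit were not called: Prkar1a was at 728 to 870.3 CPM in γ and 884 to 1334 CPM in δ (log2 fold change -0.46, edgeR adjusted p = 0.0245), Prkar1b had a log2 fold change of -0.18 and Prkacb one of -0.19. Per length, Prkar1a (188 RPKM) led the regulatory subunits in γ-cells, and Prkacb (71.1 RPKM) and Prkaca (61.5 RPKM) stood close to each other.

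Of the Rap exchange factors, 4 of 7 were called (57.1%, beside 35.0% of all genes), all higher in γ-cells (beside 20.7% of all genes). None of the 4 is an Epac. Rapgef2, which has a PDZ domain and is not opened by cAMP in the way Epacs are, was at 38.4, 43.1, 38.7, 51.995 and 49.5 CPM in γ and 6.21, 3.19 and 5.61 CPM in δ (log2 fold change 3.16 ± 0.24 SE, edgeR adjusted p = 1.58e-06). Rapgef1, which acts downstream of tyrosine kinases, was at 51.7 to 64.2 against 21.5 to 27.5 CPM and Rapgef5 at 7.55 to 10.1 against 0.976 to 3.95 CPM (log2 fold changes 1.21 and 1.78). Rapgefl1 overlapped between groups, at 3.04 to 8.196 against 1.197 to 3.39 CPM, and its call was lost by upper-quartile scaling and without γ1, γ3, δ2 or δ3. The call of Rapgef1 was also lost by that scaling (0.91). Epac2 (Rapgef4), the highest of the family per length in γ-cells (19.04 RPKM), was at 103 to 145 CPM in γ and 84.9 to 124 CPM in δ (log2 fold change 0.23, edgeR adjusted p = 0.212). Epac1 (Rapgef3) was at 20.2 to 41.5 against 45.5 to 53.2 CPM (log2 fold change -0.77, edgeR adjusted p = 0.0129). Of the opposite-strand RNA genes, Rapgef4os2 and Rapgef4os3 were called lower in γ-cells, at most 0.87 CPM there. The call of Rapgef4os2 was lost with the replicate number as a block and without γ1, δ1, δ2 or δ3; 15.9% of the Rapgef4os2 exon bases overlap Rapgef4, and without strand the reads of such pairs cannot be told apart.

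Neither CREB factor passed the fold. Crem, whose transcripts encode activators and the cAMP-inducible repressor ICER, was at 23.7, 26.8, 23.8, 21.5 and 21.1 CPM in γ and 44.7, 47.7 and 44.6 CPM in δ, with every δ library above every γ library (log2 fold change -0.97 ± 0.12 SE, edgeR adjusted p = 5.63e-05). It crossed the fold by upper-quartile scaling (-1.27) and without γ2 (-1.01). Creb1 was at 41.2 to 63.7 CPM in γ and 53.8 to 69.5 CPM in δ (log2 fold change -0.18, edgeR adjusted p = 0.339). The levels per length in γ-cells were 3.96 RPKM for Crem and 3.88 for Creb1. The 7 genes left out by the filter were Gnat1, Pde6a, Pde6b, Pde6g, Pde6h, Rapgef3os1 and Rapgef4os1, most of them known from photoreceptors.

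In single cells 38 of the 69 genes passed the filter on low counts. The threshold was an adjusted p of at most 0.05 and a log2 fold change beyond 0.72 (0.5 in natural logarithms), and comparisons that name the same class share its sums. Between Ppy+ and Gcg+ sums 5 members were called, 1 higher and 4 lower in Ppy+ (13.2% of those tested). Of all genes 12.8% were called, 6.01% higher and 6.82% lower. Between Ppy+ and Ins2+ sums 9 members were called, 5 higher and 4 lower in Ppy+ (23.7%). Of all genes 26.7% were called, 12.4% higher and 14.3% lower. Between Ppy+ and Sst+ sums 5 members were called, all lower in Ppy+ (13.2%). Of all genes 12.0% were called, 5.29% higher and 6.74% lower. Gcg+ differed from Ins2+ in 14 members, 7 in each direction, beside 22.5% of all genes (10.7% higher and 11.8% lower). Gcg+ differed from Sst+ in 9 members, 4 higher and 5 lower, beside 11.9% of all genes (5.47% and 6.46%). Ins2+ differed from Sst+ in 8 members, 3 higher and 5 lower, beside 15.4% of all genes (8.0% and 7.43%).

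Of the bihormonal classes, Ppy+Gcg+ cells differed from Ppy+ cells in 3 members, all higher, beside 2.76% of all genes (1.82% higher and 0.947% lower). Ppy+Sst+ cells differed from Ppy+ cells in 1 member, which was higher, beside 7.86% of all genes (5.29% higher and 2.57% lower). Ppy+Ins2+ cells differed from them in 5 members, 4 higher and 1 lower, beside 7.42% of all genes (4.9% higher and 2.52% lower). The part in these comparisons of bihormonal cells grouped with Gcg+, Sst+ or Ins2+ cells was not tested. Summed B-lineage markers were at 18.1 and 21.1 CPM in Ppy+ sums and at 375 to 813 CPM in the other monohormonal sums, and their part in these differences was not tested. Ppy+ cells came nearly all from other libraries than those classes. A fit with the library as a block, which sets classes against each other within a library, is therefore given beside calls of named genes that it ended. Directly, it could set Ppy+ cells against Gcg+, Ins2+ and Sst+ cells in only 1 library, through 12 Ppy+ cells with 53649 UMIs. The rest of these contrasts ran through the bihormonal classes, so a call lost there does not show that the difference is absent. The filter on low counts of this fit left out Adcy1, Adcy3, Gnat2 and Pde8a, so the calls of these 4 genes have no such check. The fit also left the difference of Gnao1 between Gcg+ and Ins2+ sums, called at 0.74, short of the fold at 0.71.

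**Figure D3:**
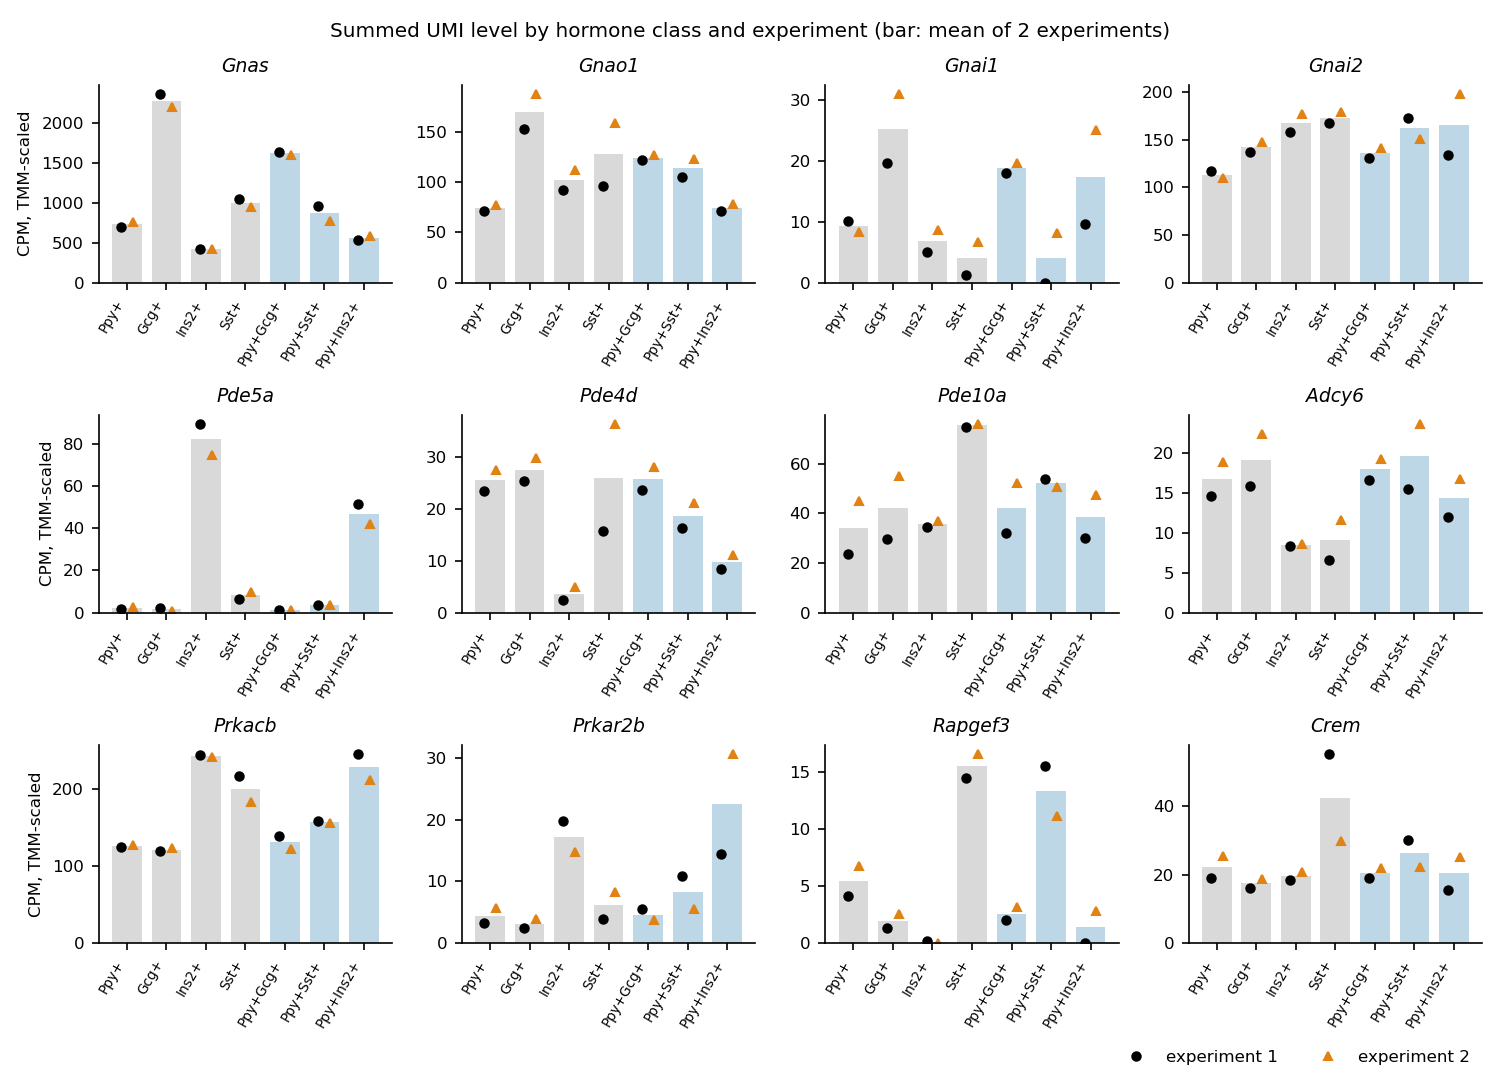
CPM of 12 members in the 7 hormone classes, with bars for the mean and 1 point for each of the 2 experiments. Gnas is highest in Gcg+ and Ppy+Gcg+ sums, Pde5a in Ins2+ and Ppy+Ins2+ sums, and Pde4d is lowest in Ins2+ sums.

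Gnas, the stimulatory subunit, was highest in the classes that express Gcg. It was at 2365 and 2198 CPM in Gcg+ cells, 1641 and 1599.9 in Ppy+Gcg+, 1051 and 948 in Sst+, 963 and 775 in Ppy+Sst+, 701 and 759.9 in Ppy+, 532 and 585 in Ppy+Ins2+ and 424 and 420.4 in Ins2+ cells (experiments 1 and 2). Gcg+ cells were above Ppy+ cells in both experiments (Ppy+ against Gcg+, log2 fold change -1.64 ± 0.12 SE, edgeR adjusted p = 7.34e-13), Sst+ cells (1.19) and Ins2+ cells (2.44), and Ppy+ cells were above Ins2+ cells (log2 fold change 0.79 ± 0.12 SE, edgeR adjusted p = 3.55e-06). The neighbours Ppy+ and Sst+ did not pass the fold (log2 fold change -0.45, edgeR adjusted p = 0.0102). Ppy+Gcg+ cells were above Ppy+ cells by log2 fold change 1.15 ± 0.12 SE, edgeR adjusted p = 1.64e-08, and by 1.10, edgeR adjusted p = 7.18e-14 in YFP+ libraries alone.

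The inhibitory subunits were spread differently. Gnai1 was at 19.6 and 30.9 CPM in Gcg+ cells, 17.9 and 19.5 in Ppy+Gcg+, 10.1 and 8.296 in Ppy+, 4.94 and 8.58 in Ins2+ and 1.31 and 6.61 in Sst+ cells. Ppy+ sums were below Gcg+ sums (log2 fold change -1.42 ± 0.26 SE, edgeR adjusted p = 9.65e-05), a call that the library block ended (-0.88, edgeR adjusted p = 0.217), and below Ppy+Gcg+ sums in YFP+ libraries alone as well (Ppy+Gcg+ against Ppy+, 0.88, edgeR adjusted p = 0.0171). Gcg+ cells were above Ins2+ cells (log2 fold change 2.03, edgeR adjusted p = 9.47e-06) and above Sst+ cells, where 144 UMIs faced 5. Gnao1 was at 71.1 and 76.9 CPM in Ppy+ cells, 121 and 127 in Ppy+Gcg+, 152 and 187 in Gcg+, 92.2 and 112 in Ins2+ and 95.9 and 159 in Sst+ cells. Ppy+ was the lowest of these and differed from Gcg+ (log2 fold change -1.19 ± 0.12 SE, edgeR adjusted p = 1.81e-09) and from Sst+ (log2 fold change -0.75, edgeR adjusted p = 0.000686), though with the library as a block the second was short of the fold (-0.67, edgeR adjusted p = 0.0321). Gnai2 was at 117 and 109 CPM in Ppy+ cells and 167 and 178 CPM in Sst+ cells (log2 fold change -0.61, edgeR adjusted p = 0.00394), short of the fold until the library was a block (-0.77, edgeR adjusted p = 0.0043). Of the Gαq group, Gna11 was higher in Ppy+Ins2+ cells (31.2 and 55.7 CPM) than in Ppy+ cells (18.5 and 24.2 CPM; log2 fold change 0.95 ± 0.26 SE, edgeR adjusted p = 0.0145).

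Among cyclases, Adcy1 was detected mainly in Gcg+ cells, with 47 UMIs (7.43 and 8.99 CPM) against 1 in Ppy+, 0 in Ins2+ and 1 in Sst+ cells (edgeR adjusted p = 1.48e-06 against Ppy+). A count of 3 UMIs, the limit that a count of 0 allows, would be 0.494 CPM in Ins2+ sums, and these limits cover counting error only. Adcy6 was at 14.6 and 18.8 CPM in Ppy+, 15.9 and 22.3 in Gcg+, 8.36 and 8.58 in Ins2+ and 6.57 and 11.6 in Sst+ cells, and was higher in Ppy+ than in Ins2+ cells (log2 fold change 0.85 ± 0.23 SE, edgeR adjusted p = 0.00387). It was also higher in Gcg+ than in Sst+ cells (log2 fold change 1.09, edgeR adjusted p = 0.0492; 1.07, edgeR adjusted p = 0.0686 with the library block). Adcy9 had the opposite order, at 15.97 and 12.3 CPM in Ins2+, 9.89 and 9.19 in Ppy+ and 7.09 and 9.35 in Gcg+ cells. It was lower in Gcg+ than in Ins2+ cells (log2 fold change -0.93 ± 0.28 SE, edgeR adjusted p = 0.0104). Ppy+ against Ins2+ was just short of the fold (log2 fold change -0.71, edgeR adjusted p = 0.0238) and passed it with the library as a block (-1.46, edgeR adjusted p = 0.0229). Adcy3, at 6.59 and 3.59 CPM in Ppy+ cells, rested on 48 UMIs there and 8 in Ins2+ cells (log2 fold change 2.17, edgeR adjusted p = 0.00192).

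The phosphodiesterases Pde5a and Pde4d set Ins2+ cells apart from the other monohormonal classes. Pde5a was at 89.2 and 74.8 CPM in Ins2+ cells and 51.6 and 41.8 in Ppy+Ins2+ cells, against 1.65 and 2.69 in Ppy+, 2.36 and 1.08 in Gcg+ and 6.57 and 9.91 in Sst+ cells. Ins2+ sums were above Ppy+ sums by more than 20 times (Ppy+ against Ins2+, log2 fold change -5.24 ± 0.23 SE, edgeR adjusted p = 1.18e-19) and above Gcg+ sums (Gcg+ against Ins2+, log2 fold change -5.54 ± 0.27 SE, edgeR adjusted p = 3.13e-18). Ppy+Ins2+ cells were above Ppy+ cells by log2 fold change 4.43 ± 0.34 SE, edgeR adjusted p = 4.24e-12, and by 4.43, edgeR adjusted p = 7.75e-13 in YFP+ libraries alone. Pde5a was also lower in Ppy+ than in Sst+ sums, on 20 and 11 UMIs (log2 fold change -1.88, edgeR adjusted p = 0.0202), and the library block ended that call (-1.99, edgeR adjusted p = 0.0969). Pde4d had the reverse pattern, at 23.5 and 27.6 CPM in Ppy+, 25.3 and 29.8 in Gcg+ and 15.8 and 36.3 in Sst+ cells but 2.47 and 4.903 in Ins2+ cells (Ppy+ against Ins2+, log2 fold change 3.04 ± 0.29 SE, edgeR adjusted p = 9.95e-11). Ppy+Ins2+ cells were between them at 8.41 and 11.1 CPM (Ppy+Ins2+ against Ppy+, log2 fold change -1.40 ± 0.38 SE, edgeR adjusted p = 0.014). The median UMIs per cell were 9817 in Ppy+Ins2+, 6791 in Ppy+ and 22537 in Ins2+ cells, and the part of droplets with 2 cells in these intermediate levels was not tested.

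Pde10a was highest in Sst+ cells, at 74.9 and 75.98 CPM, against 23.7 and 44.8 in Ppy+, 29.7 and 55.01 in Gcg+ and 34.4 and 36.8 in Ins2+ cells. It was lower in Ppy+ than in Sst+ sums (log2 fold change -1.19 ± 0.22 SE, edgeR adjusted p = 0.000142) and still so with the library as a block (-1.02, edgeR adjusted p = 0.00719). Pde4b was at 11.1 and 13.004 CPM in Ppy+ and 5.74 and 7.91 CPM in Gcg+ cells and was not called between them (log2 fold change 0.82, edgeR adjusted p = 0.0568). In Ins2+ cells the experiments differed, at 16.9 and 4.903 CPM, and Gcg+ against Ins2+ (log2 fold change -1.06, edgeR adjusted p = 0.0122) turned to 0.67 in experiment 2 alone. Pde3b, so different in bulk, was at 36.9 and 37.4 CPM in Ppy+, 39.5 and 44.2 in Gcg+, 50.4 and 63.7 in Ins2+ and 35.5 and 37.99 in Sst+ cells and was called in no pair. Pde8a was called only between Ins2+ and Sst+ sums, 19.4 and 11.03 against 5.26 and 8.26 CPM (log2 fold change 1.40, edgeR adjusted p = 0.0456), and this was 0.42 in experiment 2 alone, which has no test.

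The PKA subunits were higher in Ins2+ cells where they differed from Ppy+ cells. Prkar2b, the type IIβ regulatory subunit, was at 19.8 and 14.7 CPM in Ins2+ and 14.4 and 30.7 in Ppy+Ins2+ cells, against 3.296 and 5.61 in Ppy+, 2.36 and 3.95 in Gcg+ and 3.94 and 8.26 in Sst+ cells (Ppy+ against Ins2+, log2 fold change -2.10 ± 0.32 SE, edgeR adjusted p = 2.34e-06; -1.39 in experiment 2 alone). Prkacb was at 244 and 241 CPM in Ins2+, 217 and 183 in Sst+, 124 and 127 in Ppy+ and 119.8 and 123 in Gcg+ cells (Ppy+ against Ins2+, log2 fold change -0.94 ± 0.12 SE, edgeR adjusted p = 7.09e-08). Its difference between Ppy+ and Sst+ sums was called with the library as a block (-0.81, edgeR adjusted p = 0.000892) but not without it. Prkar1b was at 39.2 and 46.6 CPM in Ins2+ and 20.2 and 24.9 CPM in Ppy+ cells (log2 fold change -0.88, edgeR adjusted p = 8.78e-05). Prkar1a, which carries the palindrome shown above, was called in no pair, at 149 and 174 CPM in Ppy+, 172 and 168 in Gcg+, 167 and 183 in Ins2+ and 137 and 183 in Sst+ cells.

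Of the Epacs, only Epac1 was called between classes. Epac1 (Rapgef3) was at 14.5 and 16.5 CPM in Sst+, 15.5 and 11.2 in Ppy+Sst+, 4.12 and 6.73 in Ppy+, 1.35 and 2.52 in Gcg+ and 0.1901 and 0 in Ins2+ cells, and its 21 UMIs in Sst+ sums faced 1 in the much deeper Ins2+ sums. Before scaling this was a ratio of shares of all UMIs of 270.2, with a 95% counting interval of 43.5 to 11175. The difference fitted by edgeR, which also uses TMM scaling, was smaller (Ins2+ against Sst+, log2 fold change -6.05, edgeR adjusted p = 1.31e-06). Ppy+ cells were below Sst+ cells (log2 fold change -1.52, edgeR adjusted p = 0.0188) and above Gcg+ cells (1.46, edgeR adjusted p = 0.029), on 50 and 11 UMIs. The library block ended the first of these calls (-0.74, edgeR adjusted p = 0.649), and likewise that of Ppy+Sst+ against Ppy+ cells (log2 fold change 1.24, edgeR adjusted p = 0.0303; 0.97, edgeR adjusted p = 0.168 with the block). Epac2 (Rapgef4) was called in no pair, at 31.7 and 46.2 CPM in Ppy+, 39.5 and 44.9 in Gcg+, 43.7 and 40.5 in Ins2+ and 27.6 and 36.3 in Sst+ cells, and neither was Rapgef2.

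Crem was highest in Sst+ cells, at 55.2 and 29.7 CPM, against 18.95 and 25.3 in Ppy+, 16.2 and 18.7 in Gcg+ and 18.4 and 20.8 in Ins2+ cells. The Sst+ sums differed between experiments, and the difference from Ppy+ (log2 fold change -0.99 ± 0.26 SE, edgeR adjusted p = 0.00596) was -0.23 in experiment 2 alone and was not called with the library as a block (-0.83, edgeR adjusted p = 0.165). Creb1 was at 19.2 and 22.2 CPM in Ppy+, 19.9 and 26.6 in Gcg+, 16.5 and 25.7 in Ins2+ and 27.6 and 21.5 in Sst+ cells and was called in no pair.

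The bulk and single-cell comparisons of Ppy-expressing with somatostatin cells were then set side by side for the 38 genes tested in both. The cells differ between the assays. Bulk libraries took all sorted YFP+ cells, whatever their hormones, while the single-cell sums took monohormonal cells alone. Bulk δ libraries held Ppy at 9400 to 15506 CPM. The part of these unlike cells in the signs below was not tested. Of the 17 called in bulk, 9 had the same sign in single cells and 8 the opposite, and of the 15 higher in γ-cells in bulk 8 had the same sign. Several of these single-cell values were small, opposite in sign for Gna12 (-0.02), Pde4d (0.02) and Rapgef1 (-0.08) and the same for Pde3b (0.02). Values further from 0 and of opposite sign, none of them called in single cells, were those of Prkar2b (-0.41, bulk 1.66), Gnaz (-0.24, bulk 1.70) and Prkaca (-0.15, bulk 1.59). Adcy1, of opposite sign, had 1 UMI in Ppy+ and 1 in Sst+ sums. The signs of values near 0 or on so few UMIs decide little, and the share of all genes with the same sign was not computed. Of the 5 called in single cells, 4 had the same sign in bulk. Pde10a alone was called in both, lower in Ppy-expressing cells in each. Gnai2 had opposite signs (2.15 in bulk and -0.61 in single cells), and Gnai1, higher in γ-cells by 4.37 in bulk, had a single-cell log2 fold change of 1.32, edgeR adjusted p = 0.238. The bulk γ libraries also held Gcg at 46784 to 94384 CPM against 1346 to 5781 in δ libraries, and Gnai1 was highest in Gcg+ single cells. So was Adcy1, higher in γ-cells by 3.68 in bulk but with 1 UMI in Ppy+ sums against 47 in Gcg+ sums. The YFP+ single-cell libraries held no monohormonal Gcg+ cell but 336 and 332 Ppy+Gcg+ cells. The part of Ppy+Gcg+ cells or of α-cells in the bulk values of these genes was not tested.

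**Figure D4:**
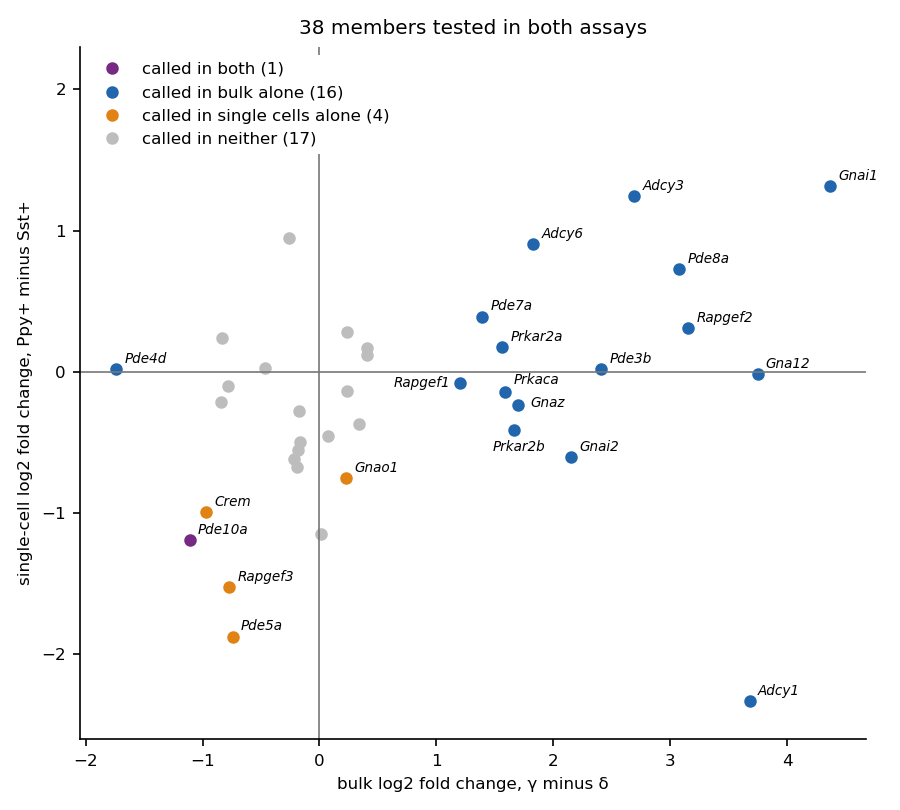
Log2 fold change of γ-cells against δ-cells in bulk (x axis) and of Ppy+ against Sst+ sums in single cells (y axis) for the 38 genes tested in both. Pde10a, called in both, lies at lower left, and most genes called in bulk alone lie to the right with single-cell values on both sides of 0.

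Other genes of the pathway were taken from 6 lists. Of the Gβ and Gγ subunits 3 of 14 were called in bulk, 1 higher and 2 lower in γ-cells (median log2 fold change -0.60, beside 35.0% of all genes called). Gnb2 was at 177 to 217 CPM in γ and 20.7 to 23.8 CPM in δ (log2 fold change 3.14, edgeR adjusted p = 2.87e-08), whereas Gnb4 was at 16.2 to 27.9 against 44.7 to 64.7 CPM (-1.21). In single cells Gng12, a Gγ subunit, was at 232 and 228 CPM in Ins2+ cells against 35.02 and 32.7 in Ppy+, 16.9 and 22.3 in Gcg+ and 64.4 and 49.6 in Sst+ cells (Ppy+ against Ins2+, log2 fold change -2.77 ± 0.13 SE, edgeR adjusted p = 1.81e-18). Gnb4 was at 3.61 and 4.903 CPM in Ins2+ and 26.3 and 26.4 CPM in Sst+ cells.

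Of the RGS proteins, which speed GTP hydrolysis by Gα, and related regulators, 7 of 22 were called in bulk, 2 higher and 5 lower in γ-cells, beside 20.7% and 14.2% of all genes. Between Ppy+ and Sst+ sums 6 of 14 were called, all lower in Ppy+, beside 6.74% of all genes lower. Rgs20 was lower in both: 0 to 1.04 CPM in γ against 5.54 to 9.11 CPM in δ, and 0.618 and 0.224 CPM in Ppy+ against 9.1996 and 13.2 CPM in Sst+ sums (log2 fold change -4.54, edgeR adjusted p = 0.000224). Rgs16 was at 37.2 and 22.3 CPM in Ppy+Ins2+ and 17.3 and 29.4 in Ins2+ cells, against 2.88 and 1.35 in Ppy+ cells (Ppy+Ins2+ against Ppy+, log2 fold change 3.86 ± 0.46 SE, edgeR adjusted p = 1.02e-07). Rgs6 had 34 UMIs in Gcg+, 14 in Ppy+ and 0 in both Ins2+ and Sst+ sums, at a limit of 0.494 and 2.20 CPM. Of the PKA anchors and inhibitors 3 of 13 were called in bulk, 1 higher and 2 lower, beside 35.0% of all genes. Akap7 was at 17.1 and 28.1 CPM in Sst+, 10.5 and 12.2 in Gcg+ and 3.71 and 5.16 in Ppy+ cells (Ppy+ against Sst+, log2 fold change -2.31 ± 0.39 SE, edgeR adjusted p = 4.15e-05). Akap12 was higher in γ than in δ libraries (17.3 to 24.9 against 1.301 to 13.1 CPM), and in single cells had 42 UMIs in Gcg+ and 1 in Sst+ sums. Akap6 was at 4.80 and 8.36 CPM in Ppy+Ins2+ sums and 0.824 and 0 CPM in Ppy+ sums, on 7 and 4 UMIs (log2 fold change 3.47, edgeR adjusted p = 0.0373). Its 37 UMIs in Ins2+ sums were all of experiment 1.

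In the list of CREB partners and coactivators, which also holds the kinase Sik3, 5 of 11 genes were called in bulk, all higher in γ-cells. The list median was 0.81, and 20.7% of all genes were called higher. The acetyltransferase Ep300 was at 99.2 to 138 CPM in γ and 25.3 to 31.9 CPM in δ (log2 fold change 2.04, edgeR adjusted p = 1.12e-06), the kinase Sik3 at 73.7 to 116 against 31.5 to 39.9 CPM and Atf1, a relative of Creb1, at 26.7 to 37.8 against 10.8 to 16.2 CPM. Between Ppy+ and Sst+ sums 1 of 10 was called (beside 12.0% of all genes), and it was Ep300 in the opposite direction, at 18.1 and 22.4 CPM in Ppy+ and 34.2 and 37.99 CPM in Sst+ cells (log2 fold change -0.84, edgeR adjusted p = 0.0171). Of genes known to respond to cAMP 9 of 13 were called in bulk, 4 higher and 5 lower in γ-cells (beside 20.7% and 14.2% of all genes), among them Sst itself, which defined a group. The neuropeptide precursor Vgf was at 1.59 to 8.26 CPM in γ and 0 to 0.339 CPM in δ. Pcsk1, a prohormone convertase, was at 153 and 167 CPM in Ins2+, 13.1 and 14.9 in Sst+ and 12.8 and 11.4 in Ppy+ cells but 0.675 and 0.3595 in Gcg+ cells, on 3 UMIs.

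Of receptors coupled to Gs or Gi 16 of 26 were called in bulk, 13 higher and 3 lower in γ-cells (beside 20.7% and 14.2% of all genes), with a median of 1.40. Between Ppy+ and Sst+ sums 5 of 11 were called, 3 higher and 2 lower in Ppy+ (beside 5.29% and 6.74% of all genes), with a median of -0.02. Gpr119, a Gs-coupled receptor for lipids, was at 46.9 to 67.7 CPM in γ and 9.84 to 14.4 CPM in δ (log2 fold change 2.28, edgeR adjusted p = 2.54e-06), and in single cells at 35.4 and 41.3 CPM in Gcg+, 17.9 and 17.3 in Ppy+, 7.22 and 6.13 in Ins2+ and with no UMI in Sst+ cells. Ppy+ cells were below Gcg+ cells (log2 fold change -1.12 ± 0.17 SE, edgeR adjusted p = 7.50e-06). The α2A-adrenergic receptor Adra2a, which couples to Gi, was higher in γ libraries (11.1 to 20.2 against 1.84 to 2.49 CPM; log2 fold change 2.74, edgeR adjusted p = 3.00e-05), but in single cells it had 263 UMIs in Ins2+ (41.4 and 55.2 CPM), 11 in Sst+ and 1 in Ppy+ sums. The β-cell markers that were higher in γ libraries stand beside this value, as beside that of Prkar2b, and their part was not tested. The somatostatin receptor Sstr2 was at 11.5 to 17.005 CPM in γ and 4.39 to 4.97 CPM in δ, and had 72 UMIs in Gcg+, 15 in Ppy+ and 0 in Ins2+ and Sst+ sums.

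The members were also measured in 5 clusters of other cells in the same libraries, on a TMM scale set over those clusters and the hormone classes together, in which levels differ from those above. Of the 69 genes, 23 were above every monohormonal sum in at least 1 of these clusters in both experiments with at least 10 UMIs there, by plain CPM as well. By the lower of the values of both experiments, 7 of these were highest in a mixed cluster led by Lyz2, Retnla and Tff3, 6 in stromal-like, 9 in endothelial-like and 1 in acinar-like cells. The share of all genes that pass the same rule was not computed, so the count of 23 shows nothing particular to the members. Adcy4, a cyclase that calcium does not stimulate, was at 49.5 and 46.4 CPM in endothelial-like cells on 47 UMIs and had 0 UMIs in monohormonal cells. Adcy7 was at 40.95 and 44.4 CPM in the mixed cluster and 39.9 and 46.97 in stromal-like cells, against 0 to 1.89 in monohormonal sums. The Gαq relatives Gna14 and Gna15 were at 19.9 and 15.6 CPM in acinar-like cells and 14.01 and 17.8 CPM in the mixed cluster, against at most 0.724 and 0.966 in monohormonal sums.

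Members of the Rapgef and other families that were described in islet cells above had higher levels in some of these clusters. Rapgef3 was at 34.7 and 136 CPM in endothelial-like and 35.6 and 24.99 in B-lineage-like cells, against 0 to 18.9 in monohormonal sums. Rapgef5 was at 74.3 and 107 CPM in endothelial-like cells against 0 to 5.31, and Rapgef4 at 71.8 and 229 against 32.01 to 54.4. Gnai2 was at 331 and 383 CPM in the mixed cluster and 307 and 512 in endothelial-like cells against 129 to 204, and Pde1a at 16.4 and 17.8 CPM in stromal-like cells against 0 to 5.31. In bulk, summed stromal markers were at 1338 to 5988 CPM in γ and 419 to 1633 in δ libraries. Of the 18, 5 were higher in every γ library and 0 in every δ library. Summed endothelial markers were at 360 to 530 CPM in γ against 86.2 to 398 in δ. Of these 19, however, 1 was higher in every γ library and 4 in every δ library. The part of stromal and endothelial cells in the bulk values of these genes was not tested. In the other direction, 9 genes had every monohormonal sum above every sum of the other clusters (Gnao1, Gnat2, Gnaz, Pde10a, Pde1c, Pde3b, Prkacb, Prkar1a and Prkar1b), of which Gnat2, Prkacb and Prkar1b remained with plain CPM. For this count too the share of all genes was not computed. Prkacb was at 141 to 287 CPM in monohormonal sums and at most 66.4 elsewhere, and Prkar1b at 23.7 to 53.8 against at most 9.09.

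**Figure D5:**
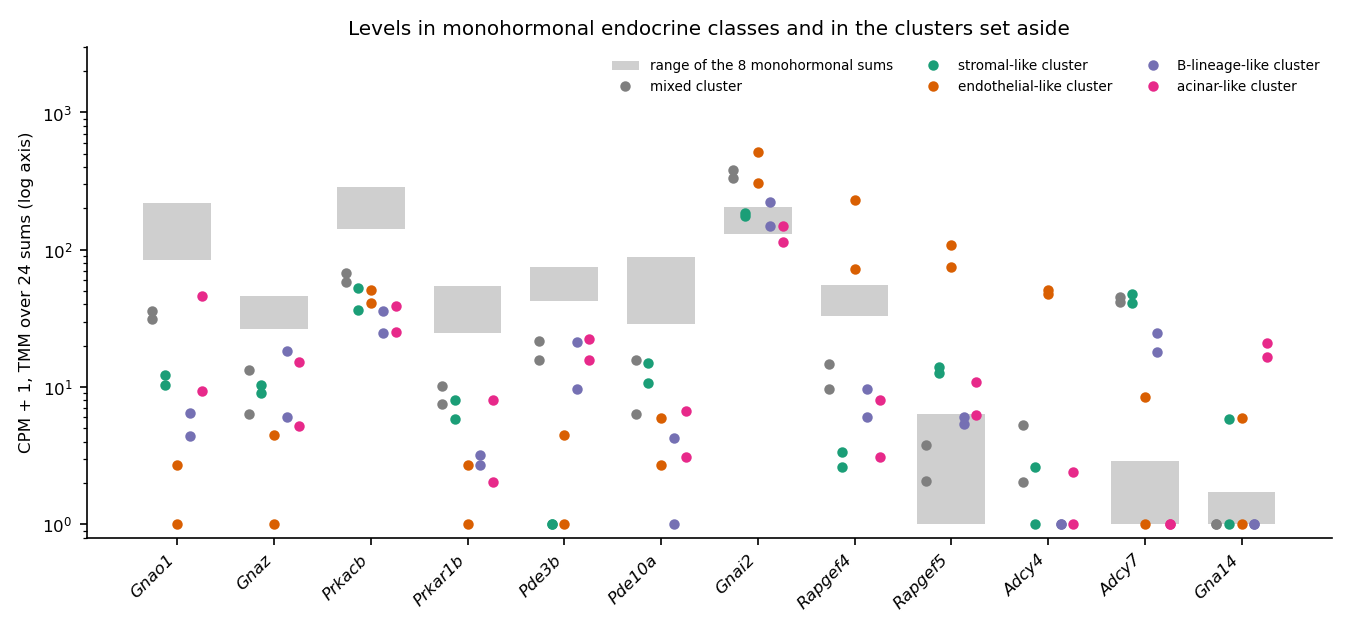
CPM + 1 on a log axis of 12 members, with a grey bar for the range of the 8 monohormonal sums and 1 point for each of the 2 experiments in each of 5 clusters of other cells. Adcy4 and Rapgef5 are high in endothelial-like cells, Gna14 in acinar-like cells, and Prkacb and Prkar1b in the hormone classes.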

How the data were processed

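The authors aligned bulk reads with STAR 2.7.2b to GRCm38.p6, counted them per gene with HTSeq 0.9.1 (union mode) and deposited raw counts; single-cell UMI counts were deposited as Cell Ranger matrices on mm10, and the authors worked further in R 3.6.1 with Seurat and DESeq2 1.28.1. The 6 columns of the bulk table that name α- or β-cells match no sample described here and were not used. The members and lists were chosen with earlier results of these data known.

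Doublets were removed, cells were clustered with Seurat 5.3.0 (R 4.3.3), hormone classes were set by thresholds on Ppy, Gcg, Ins2 and Sst, and UMIs were summed per class and experiment, with at least 10 cells a sum. edgeR 4.0.16 was fitted to all genes (quasi-likelihood, TMM, Benjamini-Hochberg): bulk genes with a mean of 5 counts or more, 5 γ against 3 δ libraries; 14 sums in 1 fit with experiment as a block, after filterByExpr. Alternatives were DESeq2 1.42.0, upper-quartile scaling, other filters, thresholds and blocks, and each library left out. The γ and δ libraries were compared without pairing. RPKM used exon lengths of GENCODE M21 on GRCm38; tables were handled in Python 3.11.15.

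Named genes were, from each comparison, up to 6 called members in each direction with the largest fold and at least 10 CPM in the higher group, the member of each family with the highest γ RPKM, Gnas, Creb1 and Crem, and up to 3 called genes of each pathway list. Other genes named were chosen after their values were seen. On simulated counts, 2-fold changes were recovered for 7 of 100 genes and 4-fold changes for 93 of 100 in the bulk design (18311 genes), and for 82 and 100 of 100 in the single-cell design (9935 genes). In the bulk design a 2-fold change lies on the fold threshold itself. Every simulated gene had the same dispersion, so these counts do not give the recovery for any single member.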

Additional observations from a re-analysis of the deposited data

Results flagged for a closer look

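The γ library with the highest Gnas level, at 96.5 CPM, stood apart from the other γ libraries, which were at 72.2 to 78.0 CPM: its gap to the nearest was 0.762 of the whole range of the group, above the 0.71 that Dixon's test allows for 5 libraries. Chance alone marks about 1 group in 20 in this way. Gnai2 moved in opposite directions in the comparisons of Ppy-expressing with somatostatin cells. Its log2 fold change was 2.15 in bulk and -0.61 in single cells, each library and each sum going the way of its own comparison. Bulk took all sorted YFP+ cells and the single-cell sums monohormonal cells alone. The difference between the assays was not tested.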

How the results depend on the processing

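The bulk count of 24 called members stayed between 22 and 30 over 15 alternatives, and between 22 and 26 with each library left out. The γ and δ libraries came from different mouse lines and were not paired. Deviations of same-numbered libraries had correlations of -0.17, 0.09 and -0.31, and so few pairs cannot decide whether the numbers pair them. A fit with the replicate number as a block also gave 24, with Adcy8 called (-1.46, edgeR adjusted p = 0.0341) and Rapgef4os2 not (-2.29, edgeR adjusted p = 0.0629). Without the filter on low counts all genes were called 3803 higher and 3787 lower in γ-cells. In single cells the experiment was the block. Without it 5 members were called for Ins2+ against Sst+ (8 with it), 1 for Ppy+Gcg+ (3), 0 for Ppy+Sst+ (1) and 3 for Ppy+Ins2+ (5) against Ppy+. With the library as a block 3 were called for Ppy+ against Gcg+ (5), 3 for Ppy+ against Sst+ (5) and 0 for Ppy+Sst+ (1), which also had 0 in YFP+ libraries alone, an alternative chosen after seeing the data, and 0 by DESeq2. Under that block only Pde10a kept its call for Ppy+ against Sst+, while Gnai2 and Prkacb were newly called. For Ppy+ against Gcg+ Gnai1 lost its call and Adcy1 was not tested. Bonferroni adjustment left 3 calls for Ppy+ against Gcg+ (5), 0 for Ppy+ against Sst+ (5), 8 for Gcg+ against Ins2+ (14), 1 for Gcg+ against Sst+ (9), 4 for Ins2+ against Sst+ (8), 0 for Ppy+Sst+ (1) and 2 for Ppy+Ins2+ (5). A log2 threshold of 0.5 gave 16 for Ppy+ against Ins2+ (9) and 4 for Ppy+Sst+ (1), and no filter gave 10 for Ppy+ against Gcg+ (5). Pde4b between Gcg+ and Ins2+ sums, at -1.06 with both experiments, ranged from -1.56 without experiment 2 to 0.67 without experiment 1. The cause of these changes was not tested. Of the values for single genes under alternatives with a test, 511 kept direction and call and 71 lost the call. Values of 1 experiment have no test: 43 stayed within 1 SE of the value from both experiments, 36 moved further and 1 reversed.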
